A study of Mus musculus with 15 samples.

Results

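Gluconeogenesis builds glucose from lactate, amino acids and glycerol, and the 10 genes described here encode its dedicated enzymes, a coactivator that switches the pathway on, and the enzymes that bring glycerol into it. They were taken by symbol from the table of cecal expression levels, as 10 of 45804 genes: Pck1, Pck2, Fbp1, Fbp2, G6pc, G6pc3, Crtc2, Gyk, Gpd1 and Gpd2. All 10 have a row in the table. 8 of them had a level high enough to be tested, and Fbp1 and G6pc did not. In short, Pck1, Crtc2 and Gpd1 were lower and Gyk and Gpd2 were higher in the cecum after antibiotics, while Pck2, Fbp2 and G6pc3 did not pass the test.

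Antibiotic-induced microbiome depletion (AIMD) was produced in 7 male wild-type (WT) C57BL/6 mice by oral gavage of ampicillin, vancomycin, metronidazole, neomycin and amphotericin B, 2 times a day for 30 days. The 8 vehicle-treated mice, the controls, were of the same strain, sex and genotype and received water on the same schedule. The labels give an age of 20 weeks for all of them. RNA came from the whole emptied cecum of each mouse, so epithelium, muscle and attached tissue were measured together, and the loss of microbes cannot be told apart from the agents themselves. Levels are in FPKM, a read number corrected for the length of the gene and for library depth.

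Phosphoenolpyruvate carboxykinase (Pck1 in the cytosol, Pck2 in mitochondria) turns oxaloacetate into phosphoenolpyruvate, fructose bisphosphatase (Fbp1, Fbp2) takes a phosphate off fructose 1,6-bisphosphate, and glucose 6-phosphatase (G6pc, G6pc3) releases free glucose. Each of these steps bypasses a glycolytic step that runs only downhill. Glycerol enters through glycerol kinase (Gyk, listed as Gk in the annotation), and glycerol 3-phosphate is exchanged with dihydroxyacetone phosphate by a cytosolic dehydrogenase (Gpd1) and a mitochondrial one (Gpd2). The liver and the kidney cortex are the classic gluconeogenic tissues. In gut epithelium and in fat, Pck1 and the glycerol enzymes also serve the making of the glycerol backbone of triglycerides.

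Reads counted on genes ranged from 8701302 to 18162331 in AIMD mice (median 11283549) and from 4391577 to 14815847 in vehicle-treated mice (median 7875254.5), with vehicle replicate 8 the least deep. The epithelial marker Epcam averaged 1854 FPKM after AIMD (SD 333, n = 7) and 1618 after vehicle (SD 172, n = 8). The surface colonocyte gene Car1 averaged 26202 and 22525 FPKM, and neither gene was called. Of the 9 epithelial markers, 2 were called higher (Krt8 and Vil1) and 1 lower (Krt18). Of the 7 surface colonocyte markers, 2 were called higher (Ceacam1 and Ceacam20) and 1 lower (Aqp8). Of 6 liver markers, albumin did not exceed 0.258 FPKM in any mouse, while Ttr averaged 23.8 FPKM after AIMD and 23.3 after vehicle, and of the 4 that were tested Tat was called higher (log2 fold change 1.04) and Cps1 lower (log2 fold change -0.76). Vehicle replicate 8 stood apart in muscle and nerve: its smooth muscle markers summed to 3009 FPKM against a vehicle median of 1049, and its neuron and glia markers to 58.9 against 12.7. The 14 tested clock genes split the mice at a wide gap into 7 with low Dbp (0.522 to 1.31 FPKM, AIMD replicates 1 to 3 and vehicle replicates 1 to 4) and 8 with high Dbp (5.13 to 13.6 FPKM, AIMD replicates 4 to 7 and vehicle replicates 5 to 8). The time of sacrifice of each mouse was not used here, and the comparison was repeated within each of these clusters.

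Differences were tested with limma on log2(FPKM + 0.5) in 11971 genes that had at least 0.5 FPKM in at least 7 mice, and a gene is called where its Benjamini–Hochberg adjusted p is under 0.05. The pseudocount of 0.5 makes the fold change of a gene with low FPKM too small. Of the 8 members tested, 2 were called higher in AIMD mice, 3 were called lower, and 3 were not called. Over all tested genes 36% were called, 19.4% as higher and 16.6% as lower. The groups did not overlap for 3 members (Pck1, Crtc2 and Gyk) and for 8.56% of all tested genes. The median log2 fold change of the 8 members was -0.28, against 0.01 over all tested genes.

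**Figure D1:**
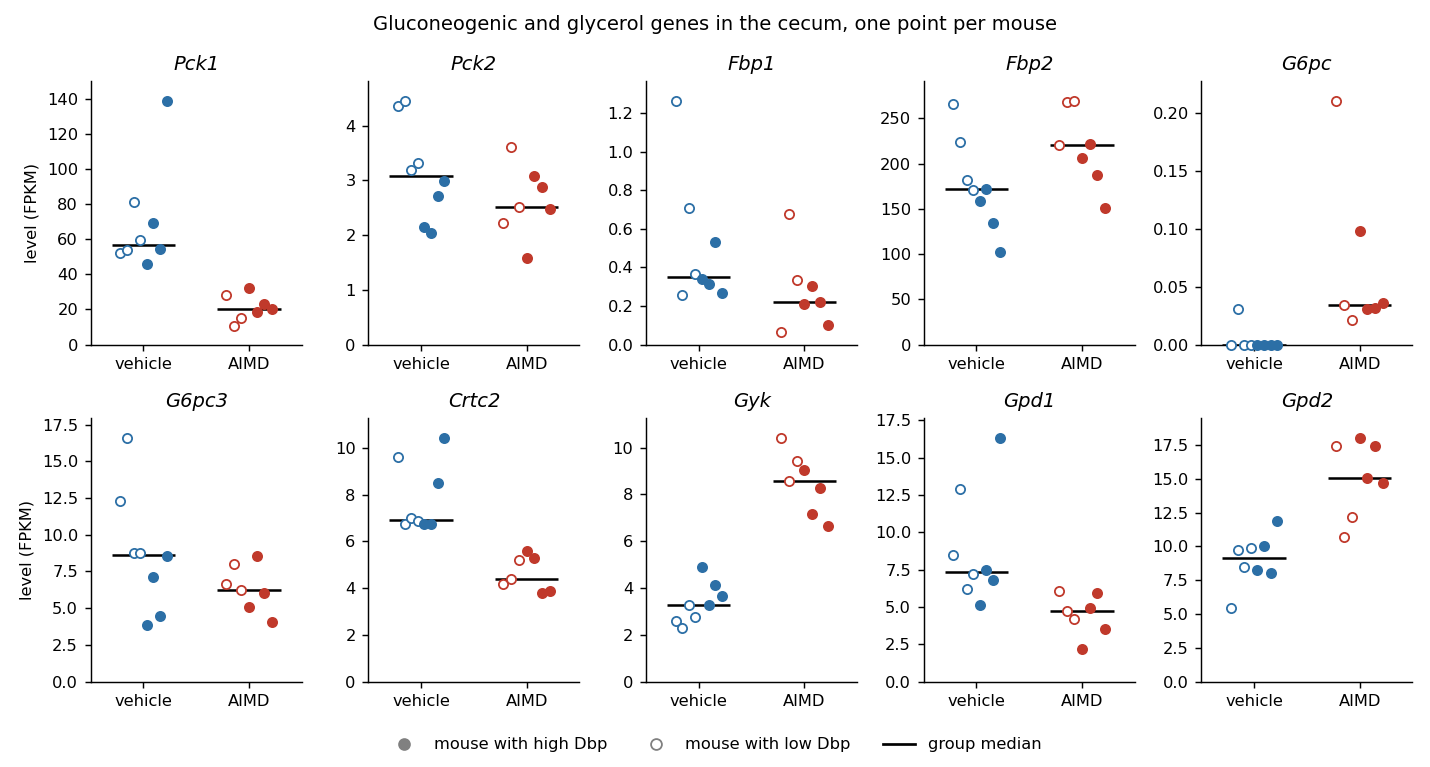
Level of each of the 10 genes (vertical axis, FPKM from 0) in vehicle-treated mice (blue) and AIMD mice (red), with 1 point per mouse, filled for mice with high Dbp and open for mice with low Dbp, and a black line at the group median. Pck1 and Crtc2 lie lower in every AIMD mouse than in every vehicle-treated mouse, Gyk lies higher in every AIMD mouse, and the groups overlap for the other genes. G6pc rests on at most 9 reads per mouse.

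Before the levels, the promoters of 3 members are printed because they hold the same short motif and their genes moved differently: Pck1 fell, Gyk rose and Fbp2 was not called. The cAMP response element (CRE) is bound by CREB, for which Crtc2 is a coactivator, and the letters TGACG are its core. Capitals mark TGACG on either strand (written CGTCA on the other strand) and the E-box CACGTG. The sequences come from RefSeq on GRCm38.p6 and run 5′ to 3′ on the strand of the gene, from 250 bases before the start site to 5 bases after it. They cover chr2:173152823-173153077 on the plus strand for Pck1, chrX:85776815-85777069 on the minus strand for Gyk and chr13:62858396-62858650 on the minus strand for Fbp2.
Pck1: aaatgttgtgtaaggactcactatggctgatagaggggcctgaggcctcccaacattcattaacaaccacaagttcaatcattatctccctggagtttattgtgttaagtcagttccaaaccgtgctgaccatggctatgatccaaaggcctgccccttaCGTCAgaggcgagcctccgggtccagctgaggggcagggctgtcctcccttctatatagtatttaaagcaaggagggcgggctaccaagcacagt
Gyk: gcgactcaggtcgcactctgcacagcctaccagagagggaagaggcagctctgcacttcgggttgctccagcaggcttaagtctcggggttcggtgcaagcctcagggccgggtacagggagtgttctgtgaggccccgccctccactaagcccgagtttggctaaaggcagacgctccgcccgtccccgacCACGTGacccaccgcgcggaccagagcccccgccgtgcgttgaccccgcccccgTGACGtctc
Fbp2: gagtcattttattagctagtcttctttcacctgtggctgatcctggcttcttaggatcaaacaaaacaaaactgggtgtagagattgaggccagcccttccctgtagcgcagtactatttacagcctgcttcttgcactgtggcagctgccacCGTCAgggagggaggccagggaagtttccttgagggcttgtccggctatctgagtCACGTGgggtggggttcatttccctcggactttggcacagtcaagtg

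The core lay at -90 in Pck1 on the minus strand, at -4 in Gyk on the plus strand and at -97 in Fbp2 on the minus strand, counted to its first base with the start site as 1 and no base 0. E-boxes lay at -58 in Gyk and -42 in Fbp2, and at -99 and -79 in G6pc3. Promoters of 8 members were at hand (Pck1, Pck2, Fbp1, Fbp2, G6pc, G6pc3, Gyk and Gpd2, the last with a pair of start sites). Crtc2 and Gpd1 have no entry. Within windows of 300 bases, from 250 before to 50 after the start site, TGACG on either strand stood in 20.8% of 32851 promoters, CACGTG in 7.15% and the full element TGACGTCA in 1.79%. None of the windows of the members held TGACGTCA. A direct repeat of AGGTCA with a single base between the copies, searched on both strands, was in 0.0396% of promoters and in none of those of the members. TGACGTCA contains TGACG, so the first shares overlap.

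Pck1 (chr2:173153048-173159273 on GRCm38, plus strand, protein coding) encodes the cytosolic phosphoenolpyruvate carboxykinase, the first dedicated and rate-limiting step of gluconeogenesis, and it showed the largest fold change of the 8 members tested. Its FPKM ran from 10.5 over a median of 20.1 to 32.5 in AIMD mice. In vehicle-treated mice it ran from 46.2 over a median of 57.0 to 139. All 7 AIMD mice lay below all 8 vehicle-treated mice, a separation in this direction that 3.3% of tested genes showed. Pck1 averaged 21.2 ± 7.52 after AIMD (SD, n = 7) against 69.5 ± 30.2 after vehicle (SD, n = 8), a ratio of 3.28 of vehicle over AIMD. This corresponds to a log2 fold change of -1.68 (standard error 0.24, 95% interval -2.20 to -1.17, limma adjusted p = 7.97e-05). In these bulk samples, fewer cells that express a gene and less of its RNA per cell cannot be told apart.

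The level of Pck1 was also compared within each clock cluster, where the groups are separate because they are separate over all mice. Among mice with high Dbp it ranged from 18.5 to 32.5 FPKM in 4 AIMD mice and from 46.2 to 139 in 4 controls, with a log2 fold change of -1.59 (limma adjusted p = 0.00951). Among mice with low Dbp the ranges were 10.5 to 28.2 in 3 AIMD mice and 52.4 to 81.4 in 4 controls, with a log2 fold change of -1.85 (limma adjusted p = 0.00332). The value of 139 belonged to vehicle replicate 8, and the next highest was 81.4 in vehicle replicate 3. Without replicate 8 the log2 fold change was -1.53.

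Fat also expresses Pck1, and some fat, muscle and nerve markers were lower in AIMD mice. The adipocyte gene Adipoq, which encodes adiponectin, had 0.473 FPKM on average in AIMD mice and 2.19 in controls, and it was called lower (limma adjusted p = 0.0215). It was the only called gene of the 8 adipocyte markers, 4 of which were tested. The 8 markers together summed to 16.0 to 27.1 FPKM in AIMD mice and 16.4 to 63.4 in controls, and Cidec had the highest share of the sum, at 14.4 and 15.1 FPKM on average. The fat genes Plin1 and Lep were near 0, at no more than 0.118 and 0.270 FPKM. Of the 7 smooth muscle markers, 2 were called lower (Tagln and Synpo2), and the 7 summed to 213 to 809 FPKM in AIMD mice and 516 to 3009 in controls. Of 3 tested neuron and glia markers, 2 were called lower (Uchl1 and S100b), and the 6 markers of that list summed to 2.19 to 3.99 FPKM in AIMD mice and 3.38 to 58.9 in controls. The part of the neuron and glia markers in these differences was not tested.

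A marker score was the mean log2(FPKM + 0.5) of the tested markers of a list. The adipocyte score thus held Adipoq, Fabp4, Cfd and Cidec, and Cidec hardly differed between the groups (log2 fold change 0.02). How well this score follows fat was not tested. With the adipocyte marker score as a covariate the log2 fold change of Pck1 was -1.69 (limma adjusted p = 0.000681), and with the smooth muscle marker score it was -1.64 (limma adjusted p = 0.000796). Both covariates were chosen after the data were seen.

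**Figure D2:**
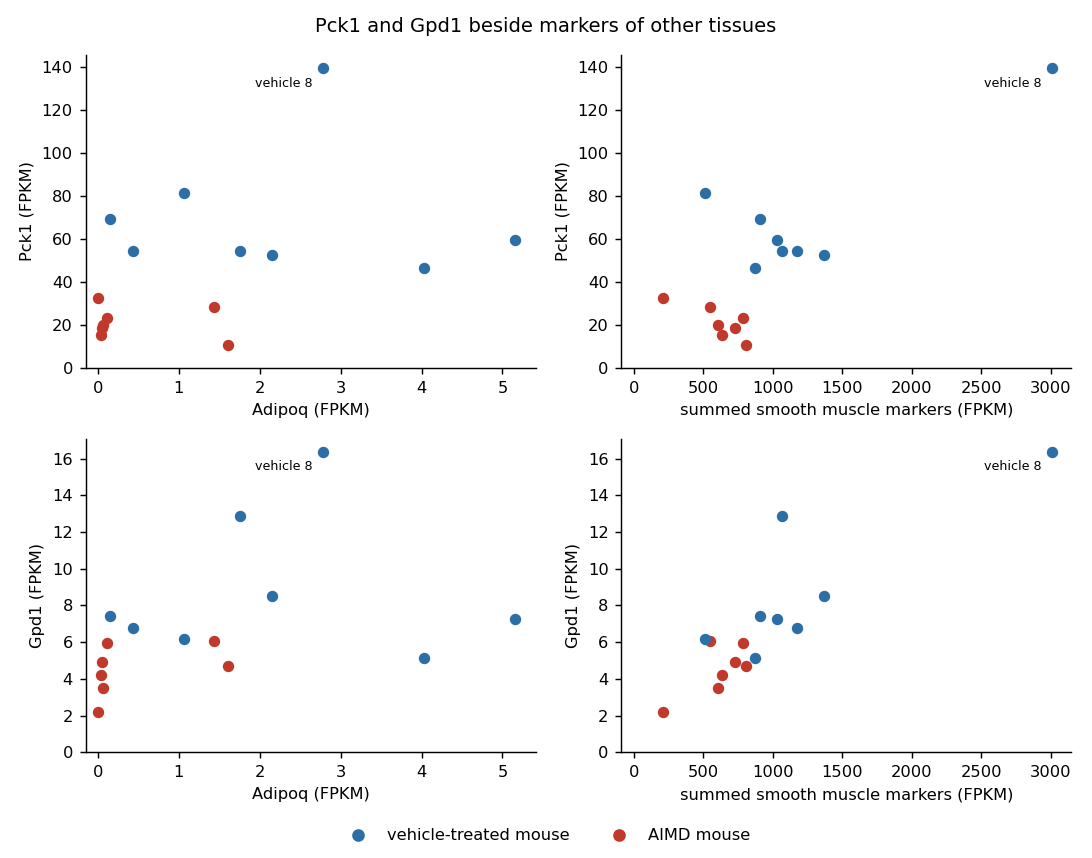
Level of Pck1 (top) and Gpd1 (bottom) on the vertical axes (FPKM) against the level of Adipoq (left, FPKM) and the summed level of 7 smooth muscle markers (right, FPKM), with 1 point per mouse, vehicle-treated in blue and AIMD in red. Vehicle replicate 8 has the highest Pck1 (139), the highest Gpd1 (16.3) and the highest smooth muscle sum (3009).

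Pck2 (chr14:55540266-55551242, plus strand) encodes the mitochondrial isoform and was a minor transcript. It had 1.57 to 3.62 FPKM in AIMD mice (median 2.51) and 2.04 to 4.46 in vehicle-treated mice (median 3.09). The ranges overlapped widely, and the log2 fold change of -0.22 (95% interval -0.57 to 0.14, limma adjusted p = 0.336) did not pass. The interval allows the level in AIMD mice to be from 0.672 to 1.10 times that with vehicle. Within a mouse, Pck1 exceeded Pck2 by 2.90 to 20.6 times in AIMD mice and by 12.0 to 46.5 times in vehicle-treated mice. The isoforms thus lay closer together in most AIMD mice, although the ranges overlapped. Exons of Pck2 overlap those of the antisense gene Gm10876, and 1.69% of its 50-base windows also occur in other genes.

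Fbp2 (chr13:62836877-62858422, minus strand) and Fbp1 (chr13:62864753-62888282, minus strand) lie side by side and encode the muscle-type and the liver-type fructose bisphosphatase. Fbp2 had the highest FPKM of the 10 genes in every mouse except vehicle replicate 8, where Pck1 exceeded it. It ranged from 151 over a median of 221 to 270 FPKM in AIMD mice and from 102 over a median of 171 to 266 in vehicle-treated mice. Fbp1 ranged from 0.0666 to 0.679 FPKM in AIMD mice (median 0.221) and from 0.258 to 1.27 in vehicle-treated mice (median 0.352). Fbp2 made up at least 99.5% of the summed FPKM of both genes in every mouse. No 50-base window of either gene occurs in another gene, so that no read without mismatches fits both Fbp1 and Fbp2. Whether reads with mismatches were assigned to the wrong gene of this pair was not tested.

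The difference in Fbp2 did not pass in the comparison of all mice. Fbp2 averaged 218 ± 42.2 FPKM (SD, n = 7, AIMD) and 176 ± 50.6 (SD, n = 8, vehicle), the log2 fold change was 0.33 (95% interval -0.05 to 0.72) and the adjusted p was 0.164 (limma). In both groups, mice with low Dbp had more Fbp2 than most mice with high Dbp: 221 to 270 against 151 to 222 FPKM in AIMD mice, and 171 to 266 against 102 to 172 in vehicle-treated mice. With the axis of clock genes as a covariate Fbp2 passed (log2 fold change 0.33, limma adjusted p = 0.0477), as it did with the clock cluster as a covariate (0.37, limma adjusted p = 0.0434) and after quantile normalization (0.46, limma adjusted p = 0.0219). With the number of reads as a covariate, added after the data were seen, it was 0.05 (limma adjusted p = 0.878).

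Fbp1 rested on 44 reads over all AIMD mice and 54 over all vehicle-treated mice. Relative to all reads on genes, the rate after AIMD was 0.640 times that after vehicle (95% interval 0.420 to 0.970, exact and for counting error only). Between mice, the difference in mean log2(FPKM + 0.5) was -0.36, which did not exceed the spread (two-sided exact permutation test, unadjusted p = 0.0993).

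G6pc3 (chr11:102189620-102194081, plus strand) encodes the widely expressed glucose 6-phosphatase, and G6pc (chr11:101367561-101377903, plus strand) the form of liver, kidney and small intestine. G6pc3 had 4.05 to 8.58 FPKM in AIMD mice (median 6.25) and 3.88 to 16.6 in vehicle-treated mice (median 8.64). Averages of 6.38 ± 1.57 after AIMD (SD, n = 7) and 8.80 ± 4.12 after vehicle (SD, n = 8) gave a log2 fold change of -0.35 (95% interval -0.87 to 0.18, limma adjusted p = 0.289), which did not pass. The highest values, 12.3 and 16.6, were those of vehicle replicates 1 and 2, both with low Dbp. Among mice with high Dbp the means of G6pc3 were 5.93 (AIMD) and 6.01 FPKM (vehicle), and among mice with low Dbp they were 6.97 and 11.6 FPKM. The difference of these differences did not pass (limma adjusted p of the interaction = 0.993).

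G6pc was barely detected. Reads on it were found in all 7 AIMD mice, with 9 in replicate 1, 2 in replicate 4 and 1 in each of the others, and in 1 vehicle-treated mouse, with 1 read in replicate 2. This is 16 reads against 1, and relative to all reads on genes a ratio of 12.6, with an exact 95% interval of 1.95 to 527 that covers counting error only. Without AIMD replicate 1, 7 reads were left. In 7 vehicle-treated mice no read was found, which allows a level of up to 0.111 to 0.281 FPKM (3 reads), and 6 of the 7 AIMD mice had fewer than 3 reads themselves. The exact permutation test over mice gave an unadjusted two-sided p of 0.000311, for a difference of 0.16 in mean log2(FPKM + 0.5). Some exocrine pancreas markers, looked at after their values were seen, had similar traces. Cpa1 was above 0 in every AIMD mouse (0.0471 to 0.204 FPKM) and had a vehicle median of 0. Pnlip had a median of 0.0763 FPKM after AIMD and was 0 in every control. Cela2a, Prss2 and Ctrb1 had medians of 0 in both groups, Amy2a5 was 0 throughout, and Cela1 averaged 59.2 and 60.4 FPKM. A common source with G6pc was not tested. G6pc3 made up at least 96.9% of the summed FPKM of both phosphatases in every mouse.

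Crtc2 (chr3:90254163-90264125, plus strand) encodes a coactivator of CREB that carries fasting signals to gluconeogenic genes. Its FPKM ranged from 3.79 over a median of 4.39 to 5.60 in AIMD mice and from 6.74 over a median of 6.92 to 10.4 in vehicle-treated mice. The groups did not overlap. Crtc2 averaged 4.62 ± 0.732 after AIMD (SD, n = 7) and 7.83 ± 1.49 after vehicle (SD, n = 8), for a log2 fold change of -0.70 (standard error 0.13, 95% interval -0.96 to -0.43, limma adjusted p = 0.000553). It was -0.74 among mice with high Dbp and -0.65 among mice with low Dbp (limma adjusted p = 0.0248 and 0.0269). Of the vehicle-treated mice, 5 of 8 lay close together, between 6.74 and 6.98 FPKM. Its paralogs Crtc1 and Crtc3, and Creb1, which encodes the factor it binds, were looked at after their values were seen. Crtc1 and Crtc3 were too low to be tested, at no more than 0.277 and 0.659 FPKM in any mouse, and Creb1 had 2.94 and 2.53 FPKM (log2 fold change 0.18, limma adjusted p = 0.305).

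Gyk (chrX:85701937-85776819, minus strand) phosphorylates glycerol and so admits it to both glucose and lipid synthesis. Its FPKM was 6.66 to 10.4 in AIMD mice (median 8.57) and 2.29 to 4.90 in vehicle-treated mice (median 3.26). Every AIMD mouse had more Gyk than every vehicle-treated mouse, as in 5.26% of tested genes. The average of 8.51 ± 1.30 after AIMD (SD, n = 7) was 2.54 times that of 3.35 ± 0.859 after vehicle (SD, n = 8), and the log2 fold change was 1.24 (standard error 0.14, 95% interval 0.94 to 1.54, limma adjusted p = 9.76e-06). The log2 fold change was 1.63 among mice with low Dbp (limma adjusted p = 0.000300) and 0.89 among mice with high Dbp (limma adjusted p = 0.00730). The difference between these cluster values, 0.74, did not pass the test of the interaction (limma adjusted p = 0.953). Exons of the antisense gene Gm14764 overlap those of Gyk, but only 0.914% of the 50-base windows of Gyk occur elsewhere.

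Gpd2 (chr2:57237635-57370719, plus strand), the mitochondrial glycerol 3-phosphate dehydrogenase that passes electrons to the respiratory chain, was higher as well. It ran from 10.7 over a median of 15.1 to 18.1 FPKM in AIMD mice and from 5.45 over a median of 9.12 to 11.8 in vehicle-treated mice. The groups touched in a single AIMD mouse, replicate 2, which at 10.7 lay under vehicle replicate 8. Gpd2 averaged 15.1 ± 2.82 after AIMD (SD, n = 7) and 8.96 ± 1.88 after vehicle (SD, n = 8), for a log2 fold change of 0.73 (standard error 0.15, 95% interval 0.41 to 1.05, limma adjusted p = 0.00162). It was 0.76 among mice with high Dbp (limma adjusted p = 0.0124) and 0.65 among mice with low Dbp, where it did not pass (limma adjusted p = 0.0815). The antisense transcript A930012O16Rik shares 5.92% of its windows.

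Gpd1 (chr15:99717515-99725005, plus strand), a cytosolic enzyme that reduces dihydroxyacetone phosphate to glycerol 3-phosphate, moved the other way. Its FPKM was 2.21 to 6.04 in AIMD mice (median 4.71) and 5.12 to 16.3 in vehicle-treated mice (median 7.34). 5 of 7 AIMD mice lay below every vehicle-treated mouse, and replicates 1 and 6 did not. The averages, 4.51 ± 1.36 after AIMD (SD, n = 7) and 8.81 ± 3.83 after vehicle (SD, n = 8), gave a log2 fold change of -0.86 (standard error 0.23, 95% interval -1.34 to -0.37, limma adjusted p = 0.00863). The highest value was again that of vehicle replicate 8, and without it the log2 fold change was -0.72 (limma adjusted p = 0.0110).

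The call of Gpd1 was lost under 4 of 16 other settings. With the smooth muscle marker score as a covariate its log2 fold change was -0.39 (limma adjusted p = 0.115), and with the adipocyte marker score it was -0.63 (limma adjusted p = 0.0731). Within the clock clusters it was -0.96 (high Dbp) and -0.71 (low Dbp), with limma adjusted p of 0.0784 and 0.0641. Exons of the antisense gene Gm16537 overlap Gpd1 and hold 9.65% of its 50-base windows. The libraries were stranded, but the strand setting of the counting is not given in the sources used here. In the overlapping stretches, reads of Pck2, Gyk, Gpd1 and Gpd2 and of their antisense partners therefore cannot be told apart.

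**Figure D3:**
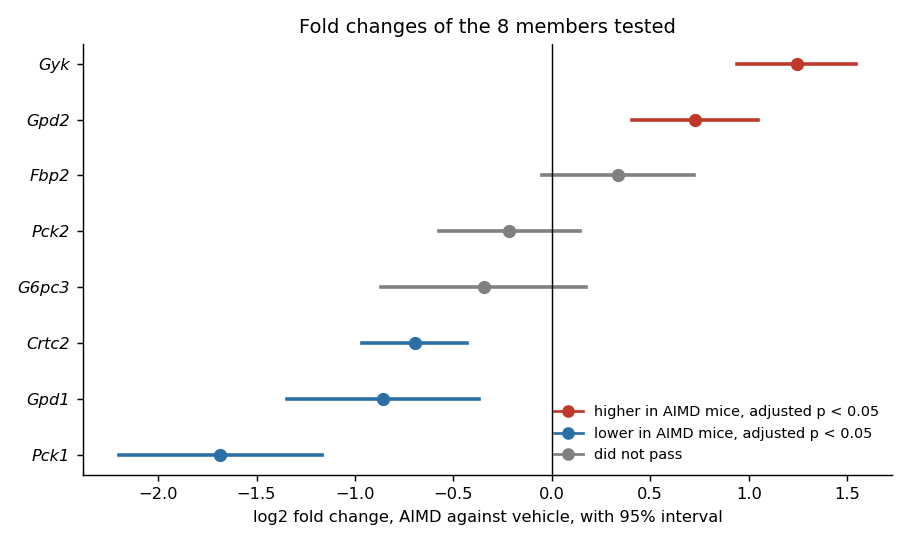
Log2 fold change of the 8 tested members, AIMD against vehicle (horizontal axis), with points at the limma estimate and bars for its 95% interval, red for genes called higher, blue for genes called lower and grey for genes that did not pass. Gyk (1.24) and Gpd2 (0.73) lie on the right, Crtc2 (-0.70), Gpd1 (-0.86) and Pck1 (-1.68) on the left, and the intervals of Fbp2, Pck2 and G6pc3 include 0.

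Because FPKM are scaled by length, levels can be set against each other within a mouse. The ratio of Gpd2 to Gpd1 was 2.27 to 8.18 in AIMD mice (median 2.93) and 0.641 to 1.61 in vehicle-treated mice (median 1.26), without overlap. Gpd2 exceeded Gpd1 in all 7 AIMD mice and in 5 of 8 controls. Gpd1l, a paralog of Gpd1 looked at after its values were seen, is not in this ratio. Its level lay above both in every mouse, at 21.6 to 33.2 FPKM in AIMD mice and 22.1 to 49.8 in controls. Gpd1l was called lower (log2 fold change -0.45, limma adjusted p = 0.0381). Gyk over Gpd1 was 1.39 to 4.10 (median 1.82) against 0.178 to 0.958 (median 0.409), also without overlap. These ratios repeat the differences of their parts and were not tested.

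The same was done for each bypass and the glycolytic enzyme it opposes. Pck1 and Pck2 together, over the pyruvate kinases Pklr and Pkm, stood at 0.0781 to 0.167 in AIMD mice and 0.398 to 0.860 in controls, without overlap. Pklr was called higher at 28.1 FPKM against 13.4 (log2 fold change 1.06, limma adjusted p = 5.71e-05), and so was Pkm, at 171 against 111 (0.64, limma adjusted p = 0.00410). Of the windows of Pklr and Pkm, 20.5% and 25.8% also occur in other genes. Both glucose 6-phosphatases over the hexokinases Hk1, Hk2, Hk3 and Hkdc1 stood at 0.0715 to 0.195 against 0.145 to 0.566, with overlap. In every mouse G6pc3 made up at least 96.9% of the phosphatase side of this ratio. Both fructose bisphosphatases over the 3 phosphofructokinases stood at 2.91 to 4.84 against 2.53 to 5.80, and these ranges overlapped almost fully.

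**Figure D4:**
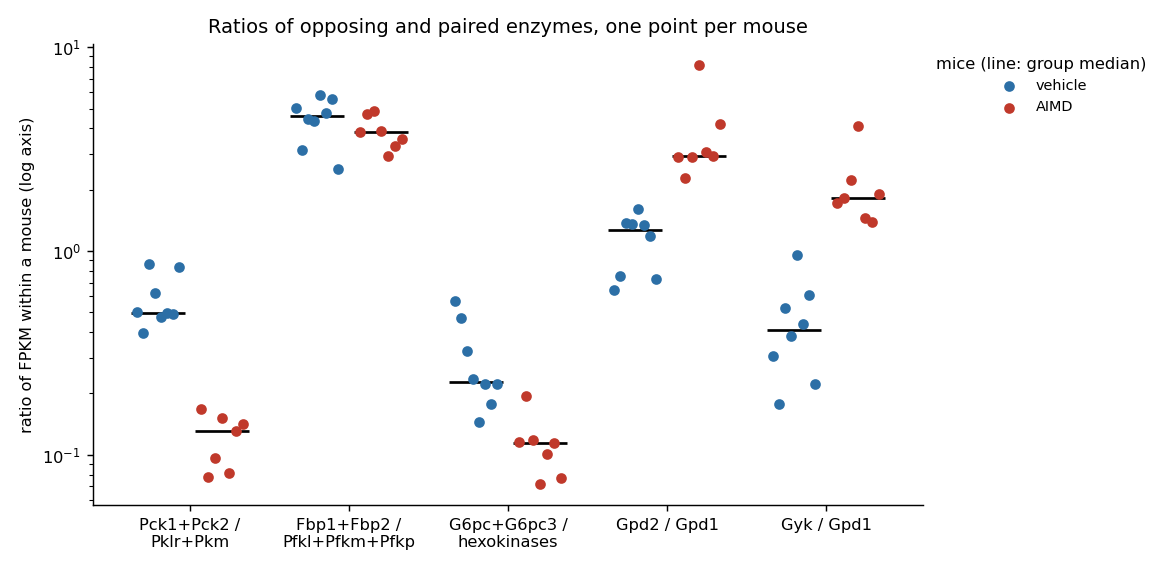
Ratio of FPKM within each mouse (vertical axis, logarithmic) for gluconeogenic over opposing glycolytic enzymes and for pairs of glycerol enzymes, with 1 point per mouse, vehicle-treated in blue, AIMD in red, and a black line at the group median. The ratios of phosphoenolpyruvate carboxykinases to pyruvate kinases, of Gpd2 to Gpd1 and of Gyk to Gpd1 do not overlap between groups, and the ratio of fructose bisphosphatases to phosphofructokinases does, at medians of 3.82 (AIMD) and 4.60 (vehicle).

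Around the members, 98 further genes of the pathways were read from 6 lists, and 83 of them were tested. Of these 83, 25 were called higher and 13 lower in AIMD mice, and 45 were not called. Among all tested genes, 19.4% were called higher and 16.6% lower. The median log2 fold change of the 83 was 0.09. In 10 of the 83 every AIMD mouse lay above every vehicle-treated mouse, and in 3 every AIMD mouse lay below. Over all tested genes this held for 5.26% and 3.3%. The counts of the single lists below have the same background, and no list was tested as a set.

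Among 15 tested genes that feed carbon into gluconeogenesis, 4 were called higher and 2 lower, with a median log2 fold change of 0.06. Pcx, the pyruvate carboxylase that makes oxaloacetate for Pck1, had 6.29 FPKM in AIMD mice and 7.53 in controls and did not pass (log2 fold change -0.24, limma adjusted p = 0.263). The largest fall was in Gpt, the alanine aminotransferase that makes pyruvate from alanine. It had 29.1 to 52.4 FPKM in AIMD mice and 86.6 to 165 in controls (log2 fold change -1.62, limma adjusted p = 8.19e-07). Ldhb, the lactate dehydrogenase subunit of oxidative tissues, was also lower (2.16 against 5.39 FPKM, log2 fold change -0.99), although 339 of its 1615 windows occur in other genes. Without vehicle replicate 8, which had the highest Ldhb, 4 genes of this list were called lower. Ldha, the subunit of glycolytic tissues, was higher at 840 against 419 FPKM (log2 fold change 1.00), and so was Got1, the cytosolic aspartate aminotransferase, at 31.4 against 17.1 (0.86). The groups did not overlap for Gpt, Ldha or Got1.

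The reversible steps shared by glycolysis and gluconeogenesis had 5 of 9 tested genes called higher and 0 lower (limma), with a median log2 fold change of 0.37. Pgam1, phosphoglycerate mutase, rose most (4.04 against 0.654 FPKM, log2 fold change 1.97), followed by the enolase Eno1 (11.2 against 4.48 FPKM, 1.24). Of the windows of Pgam1, 36.2% also occur in other genes, first among them a pseudogene, and so do 1432 of the 5509 windows of Eno1. Pgk1, looked at after its values were seen, was also called higher (25.9 against 13.8 FPKM, 0.87), with 53.9% of its windows shared. The levels of Pgam1, Eno1 and Pgk1 are therefore uncertain, and the count and the median of this list rest in part on them. Gapdh, also looked at after its values were seen, was too low to be tested (0.376 FPKM after AIMD and 0.206 after vehicle). Of its windows, 25.1% occur in other genes.

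Of 13 tested enzymes that oppose the bypasses, 6 were called higher and 1 lower, with a median of 0.25. Hk2, the hexokinase that G6pc opposes, rose most, from 12.9 to 38.2 FPKM (log2 fold change 1.56, limma adjusted p = 6.58e-05), and Hk1 rose from 6.29 to 9.87 (0.62). Hkdc1 had 11.2 FPKM with vehicle and 11.6 with AIMD, and Hk3 was too low to be tested. Among the phosphofructokinases, which Fbp2 opposes, Pfkp rose from 8.05 to 22.1 FPKM without overlap (1.41), Pfkm fell from 3.64 to 1.88 (-0.75), and the liver form Pfkl did not pass (0.25, limma adjusted p = 0.473).

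Transport of glucose 6-phosphate and glucose had 1 of 8 tested genes called higher and 2 lower, with a median of -0.07. Slc37a4, the transporter that hands glucose 6-phosphate to G6pc and G6pc3 in the endoplasmic reticulum, was lower (15.1 against 20.8 FPKM, log2 fold change -0.44, limma adjusted p = 0.0153). Slc50a1, a sugar exporter, was lower without overlap (14.7 against 31.2 FPKM, -1.06), and Slc37a3 was higher (0.33, limma adjusted p = 0.0478). The call of a single higher gene was lost in 11 of the 15 fits that each left out 1 mouse.

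Of 20 tested regulators, 6 were called higher and 3 lower, with a median of 0.20. Hnf4a, a nuclear receptor that drives epithelial and hepatic genes including Pck1, was higher in every AIMD mouse (144 against 61.0 FPKM, log2 fold change 1.25, limma adjusted p = 4.64e-05). Pparg, which drives fat-cell genes including Pck1 and Gyk, was higher at 41.6 against 25.1 FPKM (0.75). Cebpb, a factor of the fasting response, was lower at 10.4 against 29.3 FPKM (-1.42), with 18.1% of its windows shared, and Nr4a1, a receptor induced by cAMP, was lower at 0.851 against 2.51 (-0.98). Ppargc1a, the coactivator that acts beside Crtc2 in the liver, had 2.68 and 2.03 FPKM and did not pass (0.34, limma adjusted p = 0.114).

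Of 18 tested genes of glycerol release, transport and acylation, 3 were called higher and 5 lower, with a median of -0.04. The glycerol channels Aqp3 and Aqp7 were too low to be tested, at no more than 0.455 and 0.480 FPKM. Mgll, the lipase that frees the last fatty acid from glycerol, was lower without overlap (5.50 against 19.3 FPKM, log2 fold change -1.67). Agpat9, which acylates glycerol 3-phosphate, was lower (12.4 against 20.3 FPKM, -0.71), with 29.0% of its windows shared. Lpin3, a phosphatidate phosphatase, rose without overlap (7.93 against 2.72 FPKM, 1.44), and the acyltransferase Agpat2 rose as well (45.2 against 26.4 FPKM, 0.77).

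**Figure D5:**
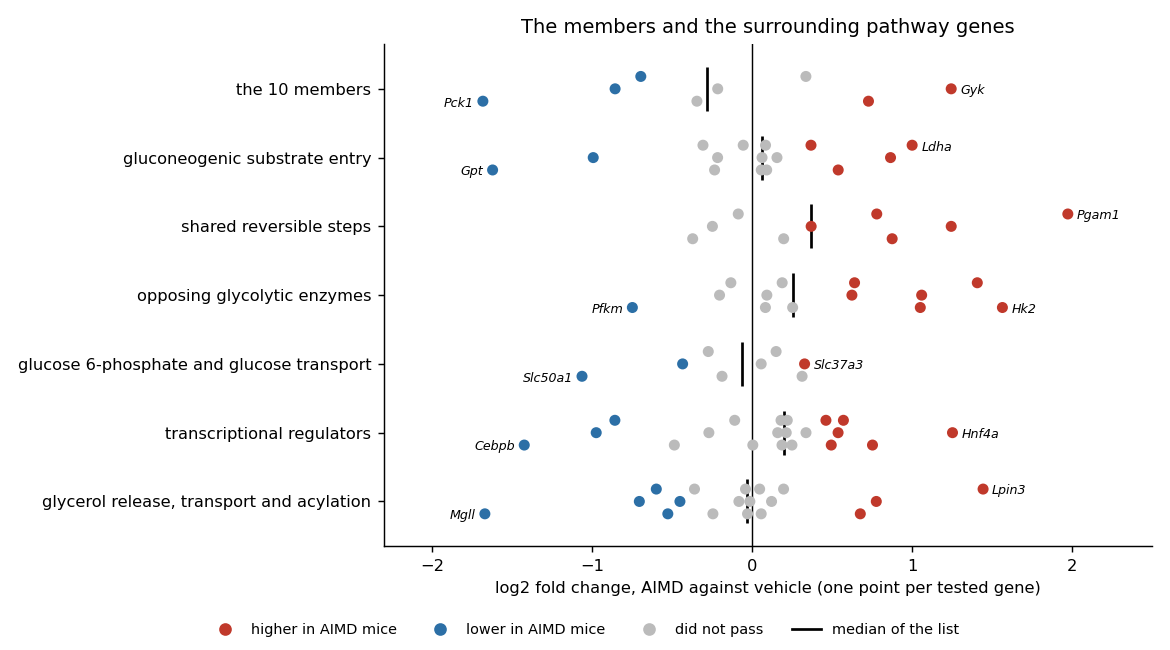
Log2 fold change, AIMD against vehicle, of each tested member and each tested gene of 6 pathway lists (horizontal axis, 1 point per gene), red where called higher, blue where called lower and grey where not called, with a black line at the median of each list and the outermost called genes named. The reversible steps and the opposing glycolytic enzymes have their medians at 0.37 and 0.25, and the members theirs at -0.28.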

How the data were processed

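Cecal poly-A RNA of 7 AIMD and 8 vehicle-treated mice was sequenced by the authors from TruSeq stranded libraries with 50-base single reads. The authors aligned these to GRCm38 (STAR) and assigned them to GENCODE genes (featureCounts). The deposited values are FPKM per mouse. How counts became FPKM and the versions are not given in the sources used here. Their own test was fitted to read counts, with treatment and time of sacrifice. Counts and times were not used here, so FPKM were tested on a log scale without time. The deposited table has 45808 rows, of which 4 with a repeated symbol were left out. No column was left unmapped.

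Each mouse was rescaled by its median-of-ratios size factor (about 1.01 in all), and log2(FPKM + 0.5) was tested with lmFit and eBayes (trend) in limma 3.58.1 under R 4.3.3. Genes needed at least 0.5 FPKM in at least 7 mice, and Benjamini–Hochberg adjustment ran over 11971 genes (two-sided, threshold 0.05). Single values had an exact permutation test with 6435 splits. Reads were recovered from the steps of the FPKM to within 0.05 of a read, with the GENCODE M21 exon length for 68.7% of 24279 genes above 0 and another length for the rest, except 2 genes. They gave the depth, which limits the precision of low genes, and a count-based alternative (limma voom). Fbp1 and G6pc are given in reads, with exact intervals for counting error only.

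The members and gene lists were chosen with earlier results of these data known. Members were described in full. From each pathway list, the called genes with the 2 largest rises and the 2 largest falls were named, with Pcx, Slc37a4, Ppargc1a, Hnf4a, Aqp3, Aqp7 and the isoforms of the opposing enzymes. Any gene outside this rule is marked. Some genes of the lists are not reported here. Replicate numbers name different mice. Promoters were taken from RefSeq on GRCm38.p6, and shared 50-base windows were counted over GENCODE M21 transcripts. Alternatives were other scalings, pseudocounts, filters and tests, clock genes as a covariate or as clusters, a replicate block and each mouse left out. Covariates chosen after seeing the data were marker scores, the clock cluster and the number of reads. The fit was tested on simulated data. Other steps ran in Python 3.11.15 with scipy 1.17.1, pandas 2.3.3, numpy 2.4.6 and, for plots, matplotlib 3.10.9.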

Additional observations from a re-analysis of the deposited data

Results flagged for a closer look

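Of 20 groups of values (10 genes in AIMD and in vehicle-treated mice), 4 held a mouse far from the others of its group. Chance flags about 1 in 20 where values are normally distributed, which does not hold for the few reads of Fbp1 and G6pc. Pck1 was 139 FPKM in vehicle replicate 8, from 2109 reads, and the next mouse had 81.4. Fbp1 was 1.27 FPKM in vehicle replicate 1, from 16 reads, and the next mouse had 0.707. G6pc was 0.211 FPKM in AIMD replicate 1, from 9 reads, and the next mouse had 0.0985. G6pc was 0.0303 FPKM in vehicle replicate 2, from 1 read, while the other vehicle-treated mice had none. With every other value at 0, any read in that mouse would have been flagged.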

How the results depend on the processing

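Over 128 refits of the 8 members under other settings, 120 kept the direction and the side of the threshold, 8 changed the call (Fbp2, Gpd1 and Gpd2, with values in the report) and 0 reversed. Leaving out each of the 15 mice in turn changed no call of a member. The fold change of Pck1 then lay between -1.80 and -1.53, and that of Gpd1 between -0.95 and -0.72. Within the clock clusters, which hold fewer mice, fewer genes were called. Whether the number of mice accounts for this was not tested. With high Dbp, 1343 genes were called higher and 1134 lower, and 15 pathway genes higher. With low Dbp, 1035 were called higher and 848 lower, 15 pathway genes higher, and 1 member higher. Replicate numbers pair no mice by the labels. Deviations of mice with the same number correlated over 0.1 in 2 of 7 pairs, and 1 of 7 mice correlated best with its own number. With replicate number as a block, 2388 genes were called higher and 2258 lower, against 2322 and 1993 without it, and 2 members were higher and 3 lower as before. Depth limits Fbp1 and G6pc, and the 16 reads of G6pc allow no test across genes.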
